A study of Mus musculus with 9 samples.

Results

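Translation initiation and elongation factors and cytosolic aminoacyl-tRNA synthetases were followed in B cells of mouse germinal centers, sorted from spleen. Members were chosen by name: every gene symbol made of Eif or Eef and a digit, and 19 named synthetase genes, each at a single locus and with at least 1 FPKM in at least 3 of the 9 libraries. FPKM counts sequenced fragments per kilobase of a transcript, scaled by library size. Of 85 symbols that match by name, 81 were members (62 factors and 19 synthetases), out of 10004 genes that met the same level filter and were tested. The rule used levels only to drop low genes, and no comparison between groups. It leaves out Kars, the lysine enzyme, and Lars2, a mitochondrial synthetase listed at 7528 to 16049 FPKM in these tables.

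The 4 symbols that missed the filter were Eif2c4, Eef2k, Eef1a2 and Eif4e1b. Just outside it, Eif2c4 reached 1 FPKM in 2 libraries, with 0, 0.53 and 0 FPKM in LZ, 1.21, 0.30 and 0.82 in DZ and 0.96, 1.82 and 0.40 in Foxo1-deficient cells. Just inside it, Eif2c3 reached 1 FPKM in 6 libraries. Eef2k, the kinase of elongation factor eEF2, reached 1 FPKM in 1 library, and Eef1a2 and Eif4e1b were listed at 0 in all 9. The Eif2c symbols are an older name of the Argonaute genes, which act in silencing by small RNAs, and 3 of them are members. Because the factor class follows names, it also holds genes that act on factors, among them 4 kinases of eIF2 and the inhibitors of Eif4e.

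The 9 libraries fall into 3 groups of 3. C57BL/6 recipients had received equal numbers of wild-type (Foxo1(+/+), CD45.1/1) and Foxo1(f/f) (CD45.1/2) B cells. Both kinds of donor cell carried ERT2cre(KI/+), a recombinase switched on by tamoxifen, and B1-8hi(KI/+), an antigen receptor for the hapten NP. Mice were immunized with NP-CGG in alum, took tamoxifen orally on days 7 to 9, and gave spleen cells on day 12 that were sorted as B220+ NP+ GL7+ CD38-. Wild-type cells were split into a light zone group (LZ, CD86hi CXCR4lo) and a dark zone group (DZ, CD86lo CXCR4hi). No zone gate was used for the Foxo1(f/f) cells, the Foxo1-deficient group. Genotype and gate therefore change together between Foxo1-deficient cells and either zone and cannot be told apart. The labels give these cells the genotype CD45.1/2 and a CD45.2-negative gate, and which entry holds was not settled. About 10000 cells went into each library. Nothing in the labels ties the replicates to separate animals: the spread that p-values are set against is that between these samples and may be technical. Where 3 groups are listed with no name, the order is LZ, DZ, Foxo1-deficient. The study asks how Foxo1 acts on germinal center B cell division after T cell help.

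A protein is started when initiation factors bring the small ribosomal subunit, the initiator tRNA and a capped mRNA together. Elongation factors then carry charged tRNAs to the ribosome and move it along, and each synthetase joins an amino acid to its tRNAs. Selection in the light zone is known to switch on Myc and mTORC1 in a fraction of B cells, both known as drivers of protein synthesis, and Foxo1 is known for its part in the dark zone program.

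Foxo1 itself lay between 14.8 and 22.1 FPKM in LZ, between 19.1 and 24.5 in DZ and between 0.81 and 3.01 in Foxo1-deficient cells. Cd86 lay between 44.3 and 58.3, 12.5 and 18.2, and 55.0 and 58.8 in the 3 groups, and Cxcr4 between 28.9 and 37.9, 59.6 and 79.5, and 17.6 and 24.7. The summed level of 12 germinal center B cell markers ranged over 2094 to 2335 FPKM (LZ), 1769 to 2135 (DZ) and 2212 to 2577 (Foxo1-deficient), with no marker at 0. Summed FPKM over all entries was 300586 to 348998 in 8 libraries and 249729 in DZ replicate 3, which also had the highest Lars2. The confidence interval that Cufflinks gave a member's FPKM had a median half-width of 10.7% (1.37% to 39.8% over members), and 14 members had an FPKM outside their own interval in at least 1 library.

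Genes of other cells were read in the Foxo1-deficient libraries. The sum of 14 myeloid and neutrophil markers ranged over 2.14 to 6.63 FPKM (LZ), 0 to 4.66 (DZ) and 169 to 334 (Foxo1-deficient cells), where Elane and Mpo were at 0. The 8 erythroid markers with a value summed to 21.9 to 44.4, 13.0 to 21.7 and 169 to 553, in the same order. Of 10 T cell markers, Cd3e, Cd3g and Cd4 were at 0 in all libraries, and the sums were 27.6 to 30.9, 13.5 to 20.6 and 15.6 to 25.9. Lck made up most of these sums, at 10.8 to 27.4 over all libraries. Plasma cell markers (6) summed to 127 to 151, 189 to 291 and 233 to 355. Most of that was Igj, at 70.2 to 99.96, 153 to 235 and 185 to 291, and Xbp1, at 34.1 to 57.7 over all libraries. Sdc1 and Prdm1 were at most 2.33 and 1.42 in any library, and Tnfrsf17 was at 0 in Foxo1-deficient cells. Stroma and follicular dendritic cell markers (7) were at 0 in both zones and summed to 0.52 to 11.2 in Foxo1-deficient cells. These values move with both Foxo1-deficient comparisons below, and their part in the results was not tested. In bulk libraries, fewer cells of a type and less RNA per cell cannot be told apart.

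A change is the difference in log2(FPKM + 1) between the means of 2 groups, in the direction named. It comes from limma fitted over all tested genes with Benjamini-Hochberg adjustment, and a call is an adjusted p under 0.05. With 3 libraries a group, few members were called, and few of all tested genes were. A member without a call is therefore not shown to be unchanged. Between DZ and LZ, limma called 0 of 81 members, where 1.94% of tested genes were called. At an unadjusted p under 0.05 there were 14 members against 15.4% of all tested genes: 13 were lower in DZ (11.7% of tested genes) and 1 was higher (3.72%). Between Foxo1-deficient and LZ cells 3 members were called, all lower: the glycine enzyme Gars, the eIF3 subunit Eif3b and the helicase Eif4a1. Of tested genes, 0.870% were called lower there and 1.56% in either direction. At an unadjusted p under 0.05 there were 19 members (23.5%), all lower, beside 7.64% of tested genes lower and 13.4% in either direction. Between Foxo1-deficient and DZ cells the eIF2 kinase Eif2ak3 was called lower, 1 of 81 against 0.750% of tested genes called lower and 2.85% in either direction. There 15 members had an unadjusted p under 0.05, 10 of them lower (12.3%, beside 4.78% of tested genes). Both Foxo1-deficient comparisons use the same 3 libraries, and each shares its other group with the DZ and LZ comparison.

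In both Foxo1-deficient comparisons the median change of the synthetases was more negative than that of the factors. Against LZ, the median change of the 19 synthetases was -0.44, with all 19 changes negative, while the 62 factors had a median of -0.16 with 43 negative and all tested genes a median of -0.02 with 52.0% negative. Under quantile normalization 18 of the 19 synthetases were negative. Against DZ, the synthetase median was -0.29 with 13 negative, the factor median -0.05 with 36 negative, and the median of all tested genes 0.12 with 38.8% negative. For DZ minus LZ the 3 medians lay close together at -0.21 for synthetases (15 negative), -0.12 for factors (40 negative) and -0.15 for all tested genes (65.0% negative). Relative to the median of all tested genes, the synthetase median was -0.06 between DZ and LZ, -0.42 between Foxo1-deficient cells and LZ and -0.42 between Foxo1-deficient cells and DZ. The factor median relative to all tested genes was 0.02, -0.14 and -0.18. With each library centred on its median, the median change between DZ and LZ was 0.07 for factors, a sign turned from that as deposited, and -0.02 for synthetases, against 0.04 for all tested genes. Centring also put all 19 synthetases on the negative side against DZ, with a median of -0.47. It shifts all genes of a library alike, and the median of all tested genes there moved from 0.12 to -0.06.

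**Figure D1:**
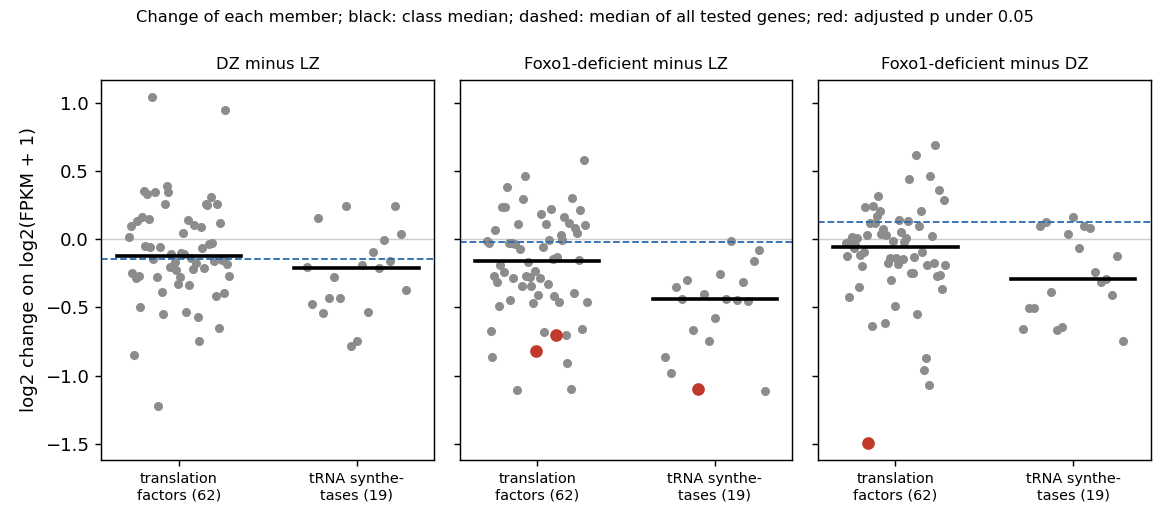
Each point is the log2 change of 1 member on the log2(FPKM + 1) scale, for 62 translation factors and 19 synthetases in 3 comparisons; black bars are class medians, dashed lines the median of all 10004 tested genes, and red points members with an adjusted p under 0.05. The synthetase medians of -0.44 against LZ and -0.29 against DZ lie below the dashed lines, and 4 points are red.

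The same contrast was seen in single libraries. The 19 synthetases together took between 0.147% and 0.163% of summed FPKM in LZ, between 0.142% and 0.162% in DZ and between 0.103% and 0.122% in Foxo1-deficient cells, so every Foxo1-deficient library lay below every wild-type one. The 62 factors took 1.98% to 2.18%, 2.22% to 2.33% and 1.80% to 2.16%, and there Foxo1-deficient cells and LZ overlapped. Of the 19 synthetases, 13 had their lowest group mean in Foxo1-deficient cells, 6 in DZ and 0 in LZ, and the highest mean was in LZ for 15 and in DZ for 4. Among factors the lowest mean was in Foxo1-deficient cells for 28, in DZ for 22 and in LZ for 12.

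Libraries of Foxo1-deficient cells lay below all LZ libraries for 14 of 19 synthetases, where 9.37% of tested genes did so. Among the 3580 tested genes whose mean FPKM lies in the range of the synthetases' (9.04 to 56.2), the share was 11.8%. The 14 with no overlap made up 73.7% of the synthetases, and 14 of the 62 factors (22.6%) had none either. Against DZ, 5 synthetases (26.3%) and 7 factors (11.3%) had no overlap on the lower side, beside 5.78% of tested genes. Between DZ and LZ, 6 synthetases (31.6%) and 17 factors (27.4%) were lower in DZ with no overlap, beside 17.1% of tested genes. At an unadjusted p under 0.05, 9 synthetases were lower in Foxo1-deficient cells than in LZ (7.64% of tested genes), and 4 than in DZ (4.78%).

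Gars, which charges the glycine tRNAs (mm9, chr6:54987994-55029498), had the lowest adjusted p of all members. It read 50.7, 58.3 and 54.6 FPKM in LZ, 46.4, 40.0 and 34.6 in DZ and 25.1, 26.2 and 23.5 in Foxo1-deficient cells. The 3 groups did not overlap, with LZ highest and Foxo1-deficient cells lowest. The log2 change from LZ to Foxo1-deficient cells was -1.10 ± 0.16 (SE), adjusted p = 0.00736, and it passed the threshold in each of 16 alternative analyses (adjusted p 0.00234 to 0.0432). Against DZ the change was -0.67 ± 0.16 with adjusted p = 0.0514, which missed the threshold, and DZ minus LZ was -0.43 ± 0.16 with adjusted p = 0.224. The change against DZ passed in 4 alternatives, at 0.0406 with no level filter, 0.0497 with a minimum of 5 FPKM, 0.0158 after quantile normalization and 0.00553 after median centring.

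The alanine enzyme Aars followed the same order. It read 20.1, 22.1 and 22.2 FPKM in LZ, 19.6, 18.2 and 17.6 in DZ and 12.3, 13.1 and 8.96 in Foxo1-deficient cells, again with no overlap between any groups. Its change against LZ was -0.86 ± 0.19 with adjusted p = 0.0537, and -0.66 ± 0.19 with adjusted p = 0.109 against DZ. The LZ value passed with no filter (0.0444), after quantile normalization (0.0404) and after median centring (0.0375), and the DZ value after quantile normalization (0.0419) and median centring (0.0274).

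Yars and Cars, the tyrosine and cysteine enzymes, had changes as large but a wider spread. Yars read 13.2, 11.4 and 20.8 FPKM in LZ, 16.1, 13.5 and 6.22 in DZ and 4.70, 6.48 and 7.89 in Foxo1-deficient cells, which lay below LZ but overlapped DZ. Its change against LZ was -1.12 ± 0.35 (adjusted p = 0.170). Cars read 10.8, 10.9 and 15.5 in LZ, 7.75, 8.43 and 9.50 in DZ and 4.74, 9.75 and 3.90 in Foxo1-deficient cells, so that LZ lay above all other libraries. Its change against LZ was -0.98 ± 0.30 (adjusted p = 0.168).

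Farsb, the beta subunit of the phenylalanine enzyme, read 24.8, 30.4 and 25.9 FPKM in LZ, 25.5, 24.8 and 16.9 in DZ and 17.95, 16.2 and 15.9 in Foxo1-deficient cells. The other subunit, Farsa, read 21.9, 18.5 and 23.9, then 19.4, 14.6 and 13.2, then 18.2, 17.5 and 15.7. For both subunits all Foxo1-deficient libraries lay below all LZ libraries, with changes of -0.66 ± 0.20 (adjusted p = 0.156) and -0.30 ± 0.20 (adjusted p = 0.549). Tars, the threonine enzyme, read 21.1, 22.7 and 19.6 in LZ, 21.1, 19.4 and 16.3 in DZ and 13.3, 18.4 and 14.3 in Foxo1-deficient cells.

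Several members had LZ above both other groups. In every LZ library, 6 synthetases lay above both (Aars, Cars, Eprs, Gars, Iars and Lars), as did 7 factors and 4.84% of tested genes. In Aars and Gars the other groups did not overlap either, and in Cars, Eprs, Iars and Lars they did. Iars, for isoleucine, read 19.2, 26.5 and 27.6 FPKM in LZ, 13.2, 14.4 and 13.3 in DZ and 11.8, 14.7 and 15.7 in Foxo1-deficient cells. Lars, for leucine, read 16.5, 17.8 and 17.1, then 11.6, 9.43 and 8.58, then 12.3, 8.96 and 12.4. Eprs, a fused enzyme for glutamate and proline, read 29.3, 34.2 and 24.7, then 18.8, 21.7 and 18.9, then 21.0, 20.4 and 22.4. For these 3 genes the DZ minus LZ changes were -0.78, -0.75 and -0.54 (SE 0.20, 0.21 and 0.18; adjusted p = 0.0888, 0.116 and 0.171). Their Foxo1-deficient minus DZ changes were 0.04, 0.17 and 0.10, with adjusted p of 0.952, 0.748 and 0.826.

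In Vars, for valine, and Dars, for aspartate, DZ was the highest group by its mean. Vars read 57.4, 55.5 and 50.7 FPKM in LZ, 72.0, 72.3 and 52.1 in DZ and 49.98, 47.6 and 48.1 in Foxo1-deficient cells. Dars read 35.5, 41.5 and 35.4, then 42.1, 37.0 and 46.7, then 34.1, 30.7 and 23.7. In both, the Foxo1-deficient libraries lay below all 6 wild-type ones, as they did in Aars and Gars, 4 of 19 synthetases beside 2.02% of tested genes. The Foxo1-deficient minus DZ change was -0.41 ± 0.16 for Vars (adjusted p = 0.236) and -0.50 ± 0.18 for Dars (adjusted p = 0.190). After median centring Vars passed, at -0.59 (adjusted p = 0.0264).

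None of the other synthetases was called. Hars, for histidine, read 22.4, 27.4 and 13.8 FPKM in LZ, 24.6, 23.5 and 25.2 in DZ and 22.9, 18.2 and 8.37 in Foxo1-deficient cells, and replicate 3 was the lowest of its group in both LZ and Foxo1-deficient cells. Nars, for asparagine, read 28.9, 32.7 and 41.6, then 30.7, 23.8 and 17.0, then 24.6, 22.4 and 27.9. In Nars the Foxo1-deficient libraries lay below LZ and within DZ. Rars, for arginine, read 26.8, 40.7 and 22.0, then 29.4, 23.0 and 22.6, then 20.0, 27.6 and 16.4. Mars, for methionine, read 23.7, 21.7 and 19.7, then 19.4, 20.5 and 16.9, then 16.9, 18.8 and 18.2. For Mars, DZ minus LZ was -0.19 ± 0.17 and Foxo1-deficient minus LZ was -0.26 ± 0.17. Sars, for serine, read 14.1, 12.7 and 17.97, then 14.4, 17.9 and 12.4, then 13.0, 13.2 and 9.19. Qars, for glutamine, and Wars, for tryptophan, had the smallest changes against LZ, at -0.01 ± 0.21 and -0.08 ± 0.23. Qars read 30.5, 37.6 and 44.2, then 43.0, 31.4 and 30.7, then 45.2, 33.0 and 33.2. Wars read 9.41, 12.1 and 9.40, then 13.0, 8.79 and 10.3, then 10.99, 9.63 and 8.46.

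**Figure D2:**
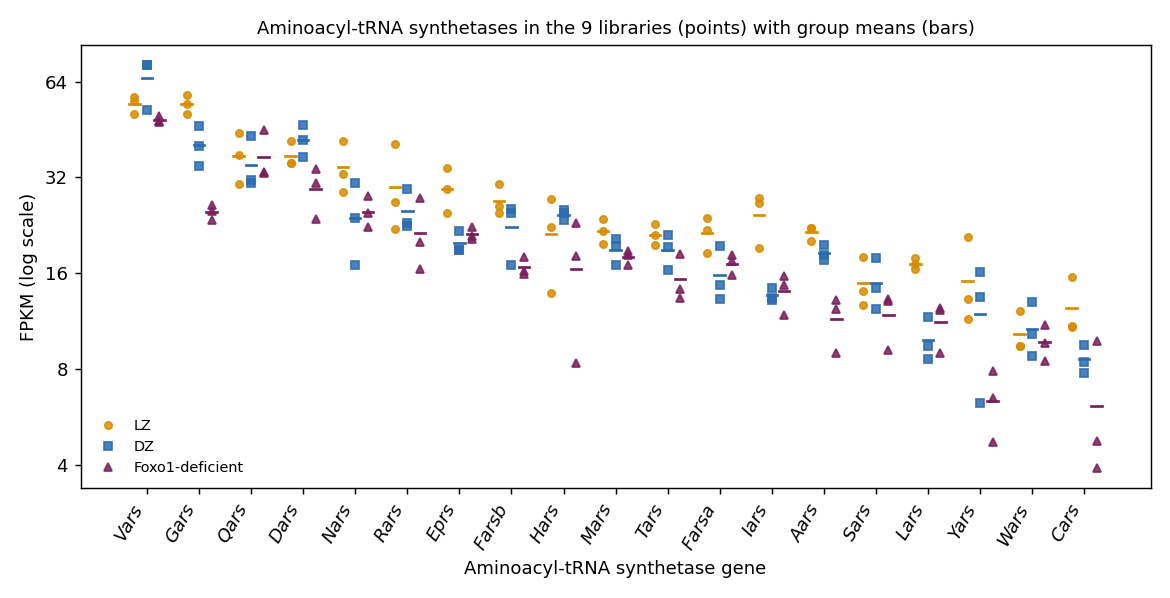
FPKM on a log scale of the 19 synthetases in each of the 9 libraries, ordered by mean level, with LZ as circles, DZ as squares, Foxo1-deficient as triangles and bars at the group means. Triangles lie below all circles for 14 genes; for Gars they run from 23.5 to 26.2 against 50.7 to 58.3 in LZ.

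Of these enzymes, 7 (Dars, Eprs, Iars, Lars, Mars, Qars and Rars) are known to assemble with Kars and scaffold proteins into the multi-synthetase complex, a grouping made after the values were seen. Against LZ the 7 complex members and the other 12 synthetases both had a median change of -0.44. Against DZ the medians were 0.04 (3 of 7 negative) and -0.40 (10 of 12 negative). Kars, outside the rule, read 39.9, 53.9 and 48.1 FPKM in LZ, 46.2, 45.1 and 37.0 in DZ and 41.7, 30.7 and 33.5 in Foxo1-deficient cells, with a change against LZ of -0.41 ± 0.18 (adjusted p = 0.351).

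Promoters were read from RefSeq (GRCm38.p6, 250 bases before to 50 after the gene start), in which 61 of the 81 members had an entry, 4 of them through another symbol. Several synthetase genes are known targets of Atf4, which with C/EBP partners binds a composite element. One form of its core, TGATGCA, was searched on both strands. It occurred in promoters of 4 of 12 synthetase genes (33.3%), 0 of 49 factor genes and 191 of 8018 tested genes (2.38%). A gene with several promoters was counted once, when any of them held a match. The stretches around these 4 matches are shown because the core was found in synthetase promoters and in none of the factor promoters searched; the other 8 synthetase promoters searched hold no match. Capitals mark the core, read on the strand of the gene, so that TGCATCA is the same core on the opposite strand; they were chosen for printing after the values were seen.
Aars (chr8:111033701-111033767, + strand): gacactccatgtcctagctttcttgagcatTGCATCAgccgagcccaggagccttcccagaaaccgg
Tars (chr15:11399636-11399702, - strand): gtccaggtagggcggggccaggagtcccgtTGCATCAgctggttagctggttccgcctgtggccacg
Iars (chr13:49682108-49682159, + strand): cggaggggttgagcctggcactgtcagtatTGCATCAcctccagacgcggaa
Yars (chr4:129189876-129189932, + strand): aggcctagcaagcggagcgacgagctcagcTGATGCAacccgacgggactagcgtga
The core begins 111 bases before the start in Aars and 14 before it in Tars, and just past the start in Iars and Yars. Gars, the called synthetase, holds no match to these exact letters in its window. It does hold ttcatca, which on the opposite strand reads TGATGAA, close to the form searched. Variants of the element were not searched in any promoter, so a promoter without a match may still hold the element. Of the 4 genes with a match, Aars, Tars and Yars had changes against LZ of -0.86, -0.45 and -1.12 and Iars of -0.75. The 8 searched without a match had changes from -1.10 (Gars) to -0.01 (Qars). Whether the element has a part in these changes was not tested. Atf4 itself read 67.7, 55.0 and 62.5 FPKM in LZ, 50.8, 68.1 and 44.4 in DZ and 59.0, 57.1 and 32.7 in Foxo1-deficient cells, with all 3 groups overlapping. A match describes letters and shows no binding.

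Eif4a1, the RNA helicase that unwinds 5' leaders within the cap-binding complex (mm9, chr11:69480437-69485925), was lower in Foxo1-deficient cells than in LZ. It read 231, 255 and 240 FPKM in LZ, 164, 177 and 148 in DZ and 155, 163 and 129 in Foxo1-deficient cells. All LZ libraries lay above all others, and DZ and Foxo1-deficient cells overlapped. The change from LZ was -0.70 ± 0.13 in Foxo1-deficient cells (adjusted p = 0.0294) and -0.57 ± 0.13 in DZ (adjusted p = 0.0625), and Foxo1-deficient minus DZ was -0.13 ± 0.13 (adjusted p = 0.678). The DZ change passed after quantile normalization (0.0432) and without Foxo1-deficient replicate 3 (0.0479). The call for Foxo1-deficient cells was kept in 1 of 9 fits that left out a library, that without DZ replicate 3. It was lost without LZ replicate 1, 2 or 3 (adjusted p = 0.0875, 0.101 and 0.0977), without DZ replicate 1 or 2 (0.0572 and 0.0509), and without Foxo1-deficient replicate 1, 2 or 3 (0.0552, 0.0501 and 0.0898). A fit on the 2 compared groups alone gave 0.0669, and the change stayed between -0.77 and -0.60 in all alternatives.

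The paralog Eif4a2 had another order. It read 91.9, 82.6 and 63.8 FPKM in LZ, 50.1, 48.3 and 41.2 in DZ and 70.4, 64.7 and 81.0 in Foxo1-deficient cells. DZ lay below all other libraries, as in 4 factors and 6.70% of tested genes, and the other 2 groups overlapped. DZ minus LZ was -0.75 ± 0.17 (adjusted p = 0.0564) and Foxo1-deficient minus DZ 0.62 ± 0.17 (adjusted p = 0.0926); with a minimum of 5 FPKM the former reached 0.0472, and with quantile normalization the latter reached 0.0482. Eif4a1 made up 71.6% to 79.0% of the sum of both paralogs in LZ libraries, 76.6% to 78.6% for DZ and 61.5% to 71.6% for Foxo1-deficient cells. Eif4a3, the related helicase of the exon junction complex, averaged 63.3, 67.3 and 46.3 FPKM, and the cofactors Eif4b and Eif4h had no group apart from the others.

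An E-box (CACGTG, which Myc with its partner Max is known to bind) lay in the Eif4a1 promoter, while those of Gars, Eif3b and Eif2ak3 held none. The stretch is shown with the E-box in capitals, which begins 189 bases before the start.
Eif4a1 (GRCm38.p6, chr11:69672577-69672642, - strand): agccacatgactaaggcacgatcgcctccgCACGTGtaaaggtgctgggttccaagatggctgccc
E-boxes were found in promoters of 11 of 49 factor genes (22.4%) and 986 of 8018 tested genes (12.3%). Among synthetase genes they lay in 4 of 12 (33.3%), namely Aars, Farsb, Iars and Tars. A forkhead element, TGTTTAC, was found in promoters of 1 of 61 member genes (Eif2s3y) and 3.14% of tested genes. Myc, a gene of the related list, read 21.4, 23.8 and 25.9 FPKM in LZ, 6.72, 8.06 and 4.35 in DZ and 11.4, 12.8 and 8.38 in Foxo1-deficient cells, with no overlap between any groups. Myc was called lower in DZ than LZ (-1.77 ± 0.25, adjusted p = 0.00641) and was not called in either Foxo1-deficient comparison. Whether Myc or the E-box has a part in the change of Eif4a1 was not tested, and a match shows no binding.

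The cap complex scaffold genes Eif4g1 and Eif4g3 also differed from each other. Eif4g3 read 21.9, 22.1 and 23.6 FPKM in LZ, 12.7, 14.7 and 14.8 in DZ and 25.8, 24.4 and 19.9 in Foxo1-deficient cells, with DZ below all other libraries. Its changes were -0.65 ± 0.18 for DZ minus LZ (adjusted p = 0.102) and 0.69 ± 0.18 for Foxo1-deficient minus DZ (adjusted p = 0.0651), and the latter passed with no level filter (0.0434). Eif4g1 averaged 53.9, 40.3 and 40.8 FPKM, so its share of the sum with Eif4g3 was 67.3% to 71.8%, 68.3% to 77.8% and 61.0% to 65.3% in the 3 groups. Eif4g2, a related scaffold that does not bind the cap protein, was the highest of the 3, at 64.5, 83.3 and 70.2 FPKM in LZ, 87.3, 90.2 and 82.3 in DZ and 71.9, 74.3 and 84.3 in Foxo1-deficient cells.

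Eif4e, the cap-binding protein, averaged 17.8, 14.9 and 17.9 FPKM and its relative Eif4e2 averaged 17.4, 20.8 and 19.4. Eif4e3, another cap-binding relative, was near the lower limit of the filter, at 2.91, 1.45 and 1.51 in LZ, 1.76, 3.04 and 2.63 in DZ and 1.06, 1.02 and 0.33 in Foxo1-deficient cells. The Foxo1-deficient libraries lay below the other 6, with a change against DZ of -0.95 ± 0.34 (adjusted p = 0.187). The inhibitor Eif4ebp1, which blocks Eif4e until mTORC1 phosphorylates it, was likewise below the other 6 libraries in Foxo1-deficient cells. It read 14.9, 9.60 and 15.5 in LZ, 16.3, 12.5 and 10.0 in DZ and 4.76, 6.42 and 8.80 in Foxo1-deficient cells. Its changes were -0.91 ± 0.28 against LZ (adjusted p = 0.168) and -0.87 ± 0.28 against DZ (adjusted p = 0.146).

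Eif4ebp2, the more abundant inhibitor, read 24.7, 32.4 and 33.9 FPKM in LZ, 41.9, 39.1 and 32.1 in DZ and 28.1, 31.7 and 39.0 in Foxo1-deficient cells, with all groups overlapping. Eif4ebp1 thus made up 22.9% to 37.7% of the sum of both in LZ libraries, 23.9% to 27.9% for DZ and 14.5% to 18.4% for Foxo1-deficient cells. Eif4ebp3 was uneven within 1 group, at 4.07, 4.76 and 4.62 in LZ, 5.42, 3.31 and 4.58 in DZ and 7.25, 1.02 and 0 in Foxo1-deficient cells. Without Foxo1-deficient replicate 1 its change was -1.94 against LZ (adjusted p = 0.0390) and -1.91 against DZ (adjusted p = 0.0330), from -1.10 (0.461) and -1.07 (0.422) with it. Eif4enif1, which carries Eif4e into the nucleus, was the only factor with Foxo1-deficient cells above the other 6 libraries, beside 4.67% of tested genes. It read 20.4, 21.3 and 21.8, then 17.7, 19.6 and 19.2, then 28.8, 23.1 and 27.4, and its change against DZ was 0.46 ± 0.17 (adjusted p = 0.193).

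Eif2ak3 (PERK, mm9, chr6:70794520-70855234), the kinase that phosphorylates eIF2 during stress of the endoplasmic reticulum, was lower in Foxo1-deficient cells than in DZ. It read 11.4, 19.6 and 10.6 FPKM in LZ, 31.2, 28.2 and 26.6 in DZ and 11.8, 6.45 and 11.3 in Foxo1-deficient cells. DZ lay above all other libraries, as 1.82% of tested genes did, and LZ and Foxo1-deficient cells overlapped. Foxo1-deficient minus DZ was -1.49 ± 0.28 (adjusted p = 0.0166), DZ minus LZ 1.04 ± 0.28 (adjusted p = 0.0963) and Foxo1-deficient minus LZ -0.45 ± 0.28 (adjusted p = 0.520). The call against DZ was lost without DZ replicate 1, 2 or 3 (adjusted p = 0.0740, 0.0625 and 0.0553) and without Foxo1-deficient replicate 2 (0.0515), with changes of -1.67 to -1.24 over 16 alternatives. The DZ minus LZ change passed after median centring (1.23, adjusted p = 0.0316).

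No other eIF2 kinase was called. Eif2ak1, which answers heme shortage, was higher than the stress kinases Eif2ak2 (averages 3.81, 3.60 and 3.70 FPKM) and Eif2ak4 (4.52, 3.97 and 4.42), at 16.8, 13.7 and 16.8 in LZ, 16.9, 13.3 and 23.9 in DZ and 23.8, 19.7 and 19.2 in Foxo1-deficient cells. Its Foxo1-deficient libraries lay above LZ and overlapped DZ, with a change against LZ of 0.38 ± 0.23 (adjusted p = 0.498). The target of the kinases, eIF2, is a trimer that carries the initiator tRNA. Its beta subunit Eif2s2 read 56.4, 41.6 and 43.9, then 45.8, 43.0 and 41.7, then 39.6, 49.3 and 29.1, with overlap of all groups. The gamma subunit has an X-linked and a Y-linked copy, Eif2s3x and Eif2s3y, which averaged 38.2, 33.1 and 30.4 FPKM and 26.2, 22.5 and 18.1. Eif2s3y was read in all libraries (16.7 to 31.2), while Xist, read from an inactive X chromosome, was at most 0.28 in any.

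eIF2B, the exchange factor that reloads eIF2, has 5 subunit genes, none of them called. Eif2b3, its gamma subunit, read 6.95, 7.76 and 6.97 FPKM in LZ, 3.03, 1.28 and 3.76 in DZ and 4.32, 4.33 and 0.96 in Foxo1-deficient cells. LZ lay above all others, with changes of -1.22 ± 0.42 in DZ (adjusted p = 0.194) and -1.11 ± 0.42 in Foxo1-deficient cells (adjusted p = 0.271). Eif2b1 read 7.19, 13.6 and 8.29, then 14.3, 13.6 and 9.17, then 4.65, 10.8 and 8.20, and Eif2b2 read 15.8, 18.8 and 16.7, then 15.8, 14.4 and 11.7, then 15.7, 19.7 and 14.7. In Eif2b2 DZ lay just below LZ, and the catalytic Eif2b5 averaged 14.9, 11.02 and 14.1.

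Eif3b (mm9, chr5:140895258-140919312), a core scaffold of the eIF3 complex that holds the small ribosomal subunit, was the called member among 13 eIF3 genes. It read 71.5, 58.6 and 60.7 FPKM in LZ, 56.3, 51.0 and 44.3 in DZ and 37.0, 37.6 and 32.3 in Foxo1-deficient cells, in steps with no overlap. Its changes were -0.82 ± 0.16 for Foxo1-deficient minus LZ (adjusted p = 0.0294), -0.49 ± 0.16 for Foxo1-deficient minus DZ (adjusted p = 0.143) and -0.33 ± 0.16 for DZ minus LZ (adjusted p = 0.360). The change against DZ passed after median centring (-0.67, adjusted p = 0.0298). The call against LZ was lost without LZ replicate 1, 2 or 3 (adjusted p = 0.122, 0.0721 and 0.0922), without DZ replicate 2 (0.0598), without Foxo1-deficient replicate 1, 2 or 3 (0.0570, 0.0628 and 0.0914) and in a fit on the compared groups alone (0.0716), while the change stayed between -0.87 and -0.73 in all 16 alternatives.

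Eif3a, Eif3c and Eif3g, the other subunits with all LZ libraries above the rest, averaged 70.6, 60.2 and 59.7, 72.8, 60.1 and 55.1, and 75.9, 52.9 and 46.7 FPKM. Of these Eif3g had the largest changes, -0.54 in DZ and -0.68 in Foxo1-deficient cells (adjusted p = 0.208 and 0.126). Eif3h was the highest of the complex at 191, 144 and 145, then 170, 197 and 160, then 181, 182 and 153, with no group apart. Eif3k, a peripheral subunit, was lowest in DZ, at 140, 142 and 146 in LZ, 133, 117 and 117 in DZ and 165, 202 and 139 in Foxo1-deficient cells. Its change from DZ to Foxo1-deficient cells was 0.44 ± 0.15 (adjusted p = 0.164). The subunits of this complex did not share 1 order of the groups. Over the 13, the median change was -0.17 for DZ minus LZ, -0.24 for Foxo1-deficient minus LZ and -0.02 for Foxo1-deficient minus DZ.

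**Figure D3:**
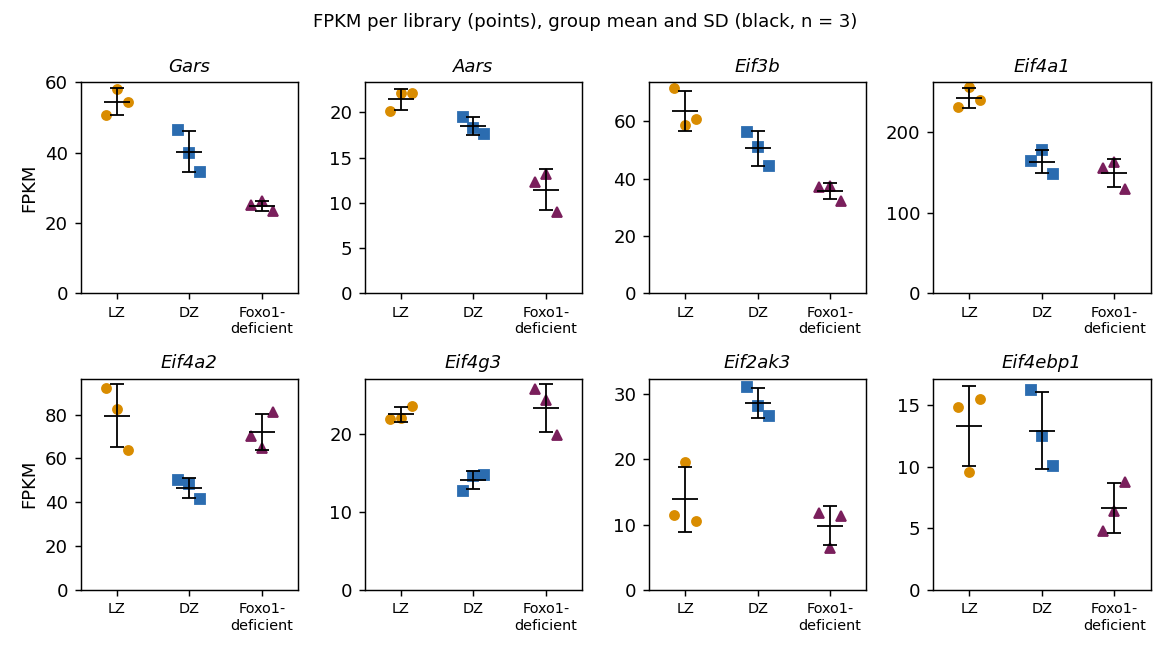
FPKM per library for 8 members, with LZ as circles, DZ as squares, Foxo1-deficient as triangles, and the group mean ± SD (n = 3) in black; each axis starts at 0. Gars, Aars and Eif3b step down over the 3 groups, Eif4a1 is high in LZ alone, Eif4a2 and Eif4g3 are low in DZ, Eif2ak3 is high in DZ, and Eif4ebp1 is low in Foxo1-deficient cells.

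Of the eIF1 and eIF5 genes, which act in start codon choice and subunit joining, none was called. Eif1 read 187, 171 and 161 FPKM in LZ, 146, 153 and 130 in DZ and 179, 134 and 110 in Foxo1-deficient cells, and DZ lay below LZ. Eif1ax read 74.6, 50.1 and 55.0, then 61.1, 93.4 and 75.8, then 78.5, 66.0 and 65.6, and Eif5 read 50.5, 69.9 and 56.0, then 50.8, 56.1 and 50.5, then 73.3, 70.4 and 59.7. In Eif5, DZ lay below Foxo1-deficient cells. Eif6, which keeps the large subunit from joining too early, read 25.6, 29.0 and 42.7, then 29.5, 28.1 and 21.4, then 25.3, 19.6 and 23.6.

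Eif5a, the hypusine-carrying factor that helps ribosomes through difficult peptide bonds, was the highest of the eIF5 class. It read 363, 298 and 336 FPKM in LZ, 283, 274 and 205 in DZ and 224, 203 and 204 in Foxo1-deficient cells. All LZ libraries were above all others. Its change against LZ was -0.65 ± 0.15 in Foxo1-deficient cells (adjusted p = 0.0568) and -0.40 ± 0.15 in DZ (adjusted p = 0.235). The former was past the threshold after quantile normalization (0.0128), after median centring (0.0312) and without DZ replicate 3 (0.0242). The paralog Eif5a2 was low and uneven, at 0.56, 3.56 and 1.502, then 3.41, 3.66 and 5.13, then 4.25, 3.76 and 1.35, with adjusted p of at least 0.339.

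The elongation factors Eef1a1 and Eef2 were the most abundant members. Eef1a1, which brings charged tRNA to the ribosome, read 2953, 2853 and 2607 FPKM in LZ, 3017, 2959 and 2557 in DZ and 2948, 2796 and 2604 in Foxo1-deficient cells. The 3 group means of 2804 ± 178, 2844 ± 251 and 2783 ± 173 (SD, n = 3) lay within 1 SD of each other, and the changes were 0.02, -0.01 and -0.03 with SE 0.12 for DZ minus LZ, Foxo1-deficient minus LZ and Foxo1-deficient minus DZ. Quantile normalization alone gave it called changes, of 1.08 for DZ minus LZ and -1.15 for Foxo1-deficient minus DZ (adjusted p = 0.0111 and 0.00569). Eef2, which moves the ribosome along the mRNA, read 526, 521 and 528, then 638, 635 and 471, then 612, 554 and 492. DZ minus LZ was 0.13 ± 0.14 for Eef2 (adjusted p = 0.737).

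Among the exchange factors of eEF1, Eef1b2 averaged 155, 167 and 152 FPKM, Eef1g averaged 287, 238 and 238, and Eef1d averaged 48.9, 41.6 and 30.3. Eef1d was below the wild-type libraries in all 3 Foxo1-deficient ones, with a change against LZ of -0.67 (adjusted p = 0.0848). Eef1e1, known as a scaffold of the multi-synthetase complex, read 11.01, 20.6 and 24.3 in LZ, 12.3, 8.62 and 7.79 in DZ and 8.86, 8.46 and 10.8 in Foxo1-deficient cells. LZ replicate 1 lay within DZ, and the changes of -0.85 ± 0.29 in DZ and -0.86 ± 0.29 in Foxo1-deficient cells had adjusted p of 0.194 and 0.211. The Argonaute members Eif2c2 (4.61, 10.6 and 12.2, then 10.9, 10.4 and 9.84, then 10.8, 11.3 and 9.96 FPKM) and Eif2c3 (0.54, 1.66 and 0.55, then 1.28, 2.31 and 0.885, then 2.28, 1.32 and 1.19) overlapped between all groups.

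**Figure D4:**
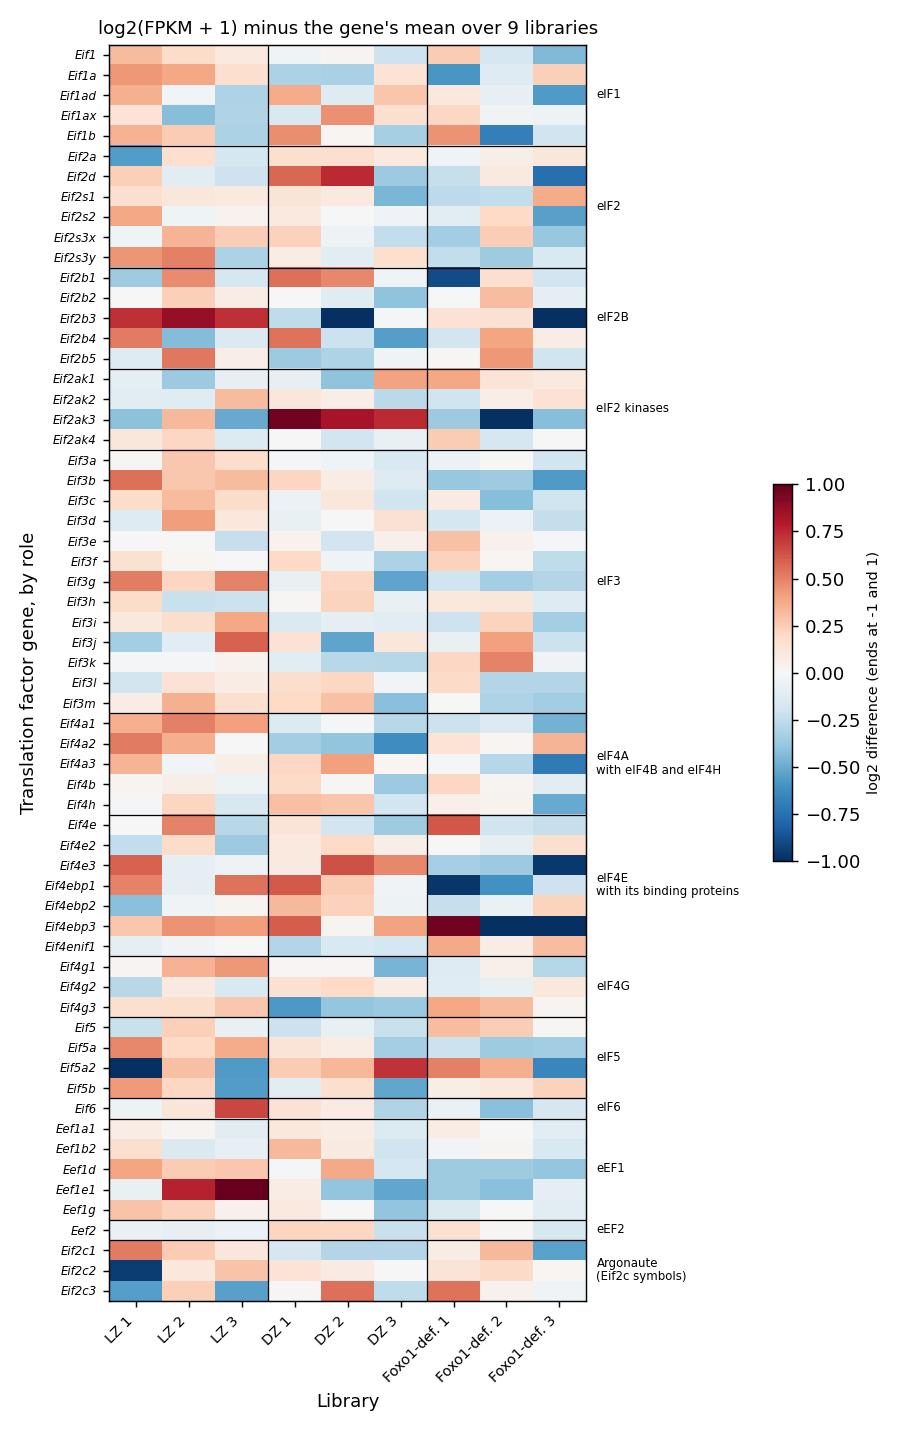
Each row is 1 of 62 translation factor genes, ordered by role, and each column a library; colour is log2(FPKM + 1) minus the gene's mean over the 9 libraries, with the scale ending at -1 and 1. Eif2ak3 is red across DZ, Eif2b3 across LZ, Eif4a2 and Eif4g3 are blue across DZ, and Eef1a1 and Eef2 are pale throughout.

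Of 43 tested genes for release factors, poly(A)-binding proteins, mTORC1 signalling and related steps, Myc was the only call, lower in DZ than LZ, beside 1.94% of tested genes (8 at an unadjusted p under 0.05, beside 15.4%). There were 0 calls by limma for Foxo1-deficient cells against LZ and 0 against DZ, with 5 each at an unadjusted p under 0.05, beside 13.4% and 16.3% of tested genes. The medians over this list were -0.14, -0.13 and 0.17 for DZ minus LZ, Foxo1-deficient minus LZ and Foxo1-deficient minus DZ. Of 26 tested genes of mitochondrial translation, limma called 0 in all 3 comparisons, where 1.94%, 1.56% and 2.85% of tested genes were called. At an unadjusted p under 0.05 there were 2, 1 and 5 of them, beside 15.4%, 13.4% and 16.3% of tested genes, with medians of -0.31, -0.13 and 0.02.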

How the data were processed

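Per the labels' protocols, total RNA of sorted cells was taken up in TRIzol and prepared for sequencing with NEBNext Ultra reagents. TopHat2 2.0.8, Cufflinks 2.1.1 and mm9 stand in the submitters' processing notes, their roles unstated. The deposited gene tables, 1 per library, hold Cufflinks FPKM with its interval and a status, per the file headers. Which total the authors scaled FPKM to is not stated. Read depth is not stated, so precision is given as the Cufflinks interval and the spread of replicates.

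Of 23700 entries, 716 of 250 repeated symbols and 7 genes with a failed estimate were left out. Limma 3.58.1 (R 4.3.3, lmFit and eBayes with trend) was fitted to log2(FPKM + 1) of the 10004 genes with at least 1 FPKM in at least 3 of 9 libraries, with all 3 groups in 1 fit. This scale understates the change of low genes. Tests are two-sided, adjusted by Benjamini-Hochberg over all tested genes, threshold 0.05. The fit was tested on simulated data.

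The members and lists were chosen with earlier results of these data known. Values in every library are given, by rule, for called members, all synthetases, the highest member of each factor role, and the 5 most positive and 5 most negative changes per comparison. Coordinates of genes are those of the files (mm9); those of promoters are on GRCm38.p6, and the 2 builds were not mixed. Eif3j has too few data for a model by its status in the tables. Alternatives were another pseudocount (0.1), no filter, a minimum of 5 FPKM, quantile normalization, median centring, a replicate block, the compared groups alone, and each library left out.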

Additional observations from a re-analysis of the deposited data

How the results depend on the processing

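With 3 libraries a group and no read counts, few members passed the threshold, so counts of calls are small. The scaling alternatives shift the median of all tested genes from -0.15 to 0.04 (median centring) or 0.01 (quantile normalization) for DZ minus LZ, and from 0.12 to -0.06 or 0.0005 for Foxo1-deficient minus DZ. No called change turned its sign in any alternative.

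For DZ minus LZ, calls went from 0 to 1 (Eif4a2, lower) with a minimum of 5 FPKM, to 2 (1 higher, 1 lower) with quantile normalization and to 1 (Eif2ak3, higher) with median centring, all factors. For Foxo1-deficient minus LZ, calls went from 3 to 5 with either scaling, all lower, of which 2 were synthetases, and to 1 in a fit on the compared groups alone, where 0 factors were called. With no filter 2 synthetases were called. For Foxo1-deficient minus DZ, calls went from 1 to 3 with no filter (2 factors, 1 synthetase), 2 with a minimum of 5 FPKM (1 synthetase), 5 with quantile normalization (1 higher, 4 lower; 3 factors, 2 synthetases) and 6 with median centring (all lower; 3 factors, 3 synthetases), where the synthetase median was -0.47. Quantile normalization moved Eef1a1, among the highest genes of the table, from 0.02 to 1.08 for DZ minus LZ and from -0.03 to -1.15 for Foxo1-deficient minus DZ; the cause was not tested. A pseudocount of 0.1 moved no count of calls by over 1.5 times. The share of all tested genes called in each alternative was not set beside these counts or those below. A rise or fall in them is therefore no result about the members.

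Leaving out each library in turn gave 0 to 1 calls for DZ minus LZ (all factors), 1 to 4 for Foxo1-deficient minus LZ (0 to 3 factors) and 0 to 2 for Foxo1-deficient minus DZ (0 to 2 factors). Without DZ replicate 3, the synthetase median was -0.11 for DZ minus LZ and -0.39 for Foxo1-deficient minus DZ.

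Nothing in the labels says that a replicate number shared between groups marks a shared animal or batch. Same-numbered libraries correlated in their deviations at -0.07 to 0.08, none of 9 pairs over 0.1, and 5 of 9 libraries correlated best with their own number in both other groups, which is a hint from the data and not from the design. With the replicate number as a block, DZ minus LZ had 1 call (Eif4a1, adjusted p = 0.0401, against 0.0625 without the block), and Eif5a passed for Foxo1-deficient minus LZ (adjusted p = 0.0429).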
